A study of Mus musculus with 12 samples.

Results

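Cholesterol synthesis and its control by SREBP2 were followed through a list of 28 genes, 20 for enzymes of the pathway and 8 for the proteins that set its activity. A gene was measured through a probe set that names that gene alone, the brightest one where there were several, and was kept if its intensity passed 50 on 1 array or more. On these terms 26 of the 28 genes were measured and all 26 passed the intensity filter, among 11933 genes tested. Acat2, the cytosolic thiolase of the first step, was not analysed here, and Mbtps2, the site-2 protease, shares its probe set with another gene and was given no value. The measured genes comprised 5 of 6 genes of the mevalonate steps, both genes of the prenyl steps, all 12 genes from squalene to cholesterol and 7 of 8 control genes.

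Cells build cholesterol from acetyl-CoA through mevalonate, the isoprenoid diphosphates, squalene and lanosterol. SREBP2 is made as a membrane protein of the endoplasmic reticulum, where Insig proteins hold it with its escort Scap as long as sterol is plentiful. When sterol runs low the complex moves to the Golgi, proteases release the transcription factor, and it raises the genes of synthesis and uptake as well as Insig1. Oxidised forms of cholesterol in turn activate the liver X receptors, which raise the pumps that remove sterol, and in the small intestine both systems face cholesterol from diet, bile and local synthesis.

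The study asked how the ageing intestine responds to a high-fat challenge. Male C57BL/6J mice of 4 months (young) or 21 months (old) were housed individually and received lab chow and then a semi-synthetic low-fat diet, after which they stayed for 2 weeks on that low-fat diet (LF, 10% of energy from fat) or changed to a high-fat diet (HF, 45%). Palm oil replaced the lard of the commercial formulas in both diets, and the mice were killed in the postprandial state. The small intestine was divided into 3 segments, proximal, middle and distal, and scrapings of each gave RNA that was pooled from 6 young or 8 old mice, so each of the 12 arrays is the only one of its segment, age and diet. Since the same mice gave all 3 segments, only 4 pools are independent. A scraping was made of mucosa and submucosa and mixes their cell types, and fewer cells of a type cannot be told apart from less RNA per cell.

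The upstream sequences of 4 genes are shown because their products stand at different points of the control circuit and their levels behaved differently: Hmgcs1 and Cyp51 code for synthesis enzymes that were higher on HF in every segment, Insig1 had the largest diet difference of the list, and its relative Insig2 did not pass the test for diet. Each line holds the 150 bases before the transcription start from RefSeq (GRCm38.p6), 5′ to 3′ on the strand of the gene. Capitals mark the sterol regulatory element form TCACCCCAC, the shorter form CACNCCAC and the CCAAT box that the factor NF-Y binds, each on either strand. The regions are chr13:119690201-119690350 on the + strand for Hmgcs1, chr5:4104698-4104847 on the - strand for Cyp51, chr5:28071262-28071411 on the + strand for Insig1, and chr1:121332590-121332739 on the - strand for Insig2, the most upstream of its 3 starts.
Hmgcs1: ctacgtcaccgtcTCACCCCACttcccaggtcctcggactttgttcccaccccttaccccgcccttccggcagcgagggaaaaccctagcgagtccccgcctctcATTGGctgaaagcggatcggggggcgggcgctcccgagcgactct
Cyp51: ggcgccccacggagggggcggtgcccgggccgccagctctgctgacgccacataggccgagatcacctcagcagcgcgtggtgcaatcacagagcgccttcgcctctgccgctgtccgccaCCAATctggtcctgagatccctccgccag
Insig1: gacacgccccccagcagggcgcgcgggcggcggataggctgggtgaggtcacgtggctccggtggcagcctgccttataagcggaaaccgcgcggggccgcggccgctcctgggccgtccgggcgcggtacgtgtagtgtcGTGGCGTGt
Insig2: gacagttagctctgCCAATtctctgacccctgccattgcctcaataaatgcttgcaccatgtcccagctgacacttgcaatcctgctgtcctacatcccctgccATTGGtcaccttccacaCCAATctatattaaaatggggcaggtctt

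RefSeq windows of 300 bases, 250 before and 50 after the start, were given for 22 of the 26 measured genes, and Fdps, Fdft1, Sqle and Stard4 had none in the table. Hmgcs1 alone held TCACCCCAC, with its first base at -137 from the start, against 0.551% of all 32851 windows. The shorter form CACNCCAC, which lies inside the longer one, was found in Hmgcs1 and, on the opposite strand at -9, in Insig1. These were 2 of the 30 windows of the 22 genes (6.67%), close to the share of all windows (6.24%). A CCAAT box was present for 20 of the 22 genes, in 22 of their 30 windows (73.3%) against 37.4% of all windows, and the letters GGGCGG, which the factor Sp1 binds, also for 20 of the 22 genes (83.3% of windows against 35.7%). Many genes of the list have several starts, and these windows were searched on both strands for the letters only.

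The segment labels held against genes of known position: all 5 distal markers, among them the bile acid carrier Fabp6, were higher in the distal than in the proximal segment and all 4 proximal markers lower. The array of the distal segment of old mice on HF stood somewhat apart, with a mean rank correlation of 0.981 with the other 3 distal arrays, where the other 11 arrays gave 0.987 to 0.991 within their segment. On it all 7 markers of proliferating crypt cells, all 7 of smooth muscle and all 4 of fibroblasts were below both the old LF and the young HF distal array. The same held for all 4 Paneth and all 3 B cell markers. Against either array only 1 of 8 enterocyte and 1 of 4 goblet markers were lower. Values without it are given beside the results that it moves most.

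On HF the genes of cholesterol synthesis and its control were higher as a group, and none was called lower by the test that follows. In the means of the 3 segments 10 of the 26 genes rose with an adjusted p under 0.05 (limma on the 4 pools, age as a further term), where 2.5% of all tested genes rose and 3.06% fell. The median difference of the 26 genes was 0.17 on the log2 scale against -0.01 for all tested genes, and 21 of 26 (80.8%) lay above 0 against 44.7%. The largest difference was that of Insig1, the retention protein that SREBP2 itself raises, at 0.94 (1.92-fold). The other 9 were Hmgcs1, Pmvk, Mvd, Fdps, Fdft1, Sqle, Lss, Cyp51 and Srebf2, with 0.24 to 0.44 (1.18-fold to 1.36-fold). The call rests in part on the middle segment: without it only Insig1 stayed under an adjusted p of 0.05, although the differences of the other 9 stayed between 0.14 and 0.43, and without the distal segment, with its array that stood apart, 8 genes rose.

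Counted over the 6 pairs of arrays, HF against LF in 3 segments and 2 ages, 12 of the 26 genes were higher on HF in 6 of 6 pairs, against 5.61% of all tested genes. They were Hmgcs1, Mvk, Pmvk, Mvd, Fdps, Sqle, Lss, Cyp51, Hsd17b7, Dhcr7, Srebf2 and Insig1. A further 6 genes (Idi1, Fdft1, Lbr, Msmo1, Nsdhl and Stard4) were higher in 5 of 6 pairs. How many of all tested genes had 5 of 6 was not counted, so this number has no background beside it. Only Ggps1, whose product makes geranylgeranyl diphosphate for protein prenylation, was lower in 6 of 6 pairs, against 8.53% of all tested genes. For 11 of the 26 genes both HF arrays lay above both LF arrays in each of the 3 segments, a pattern held by 2.98% of all tested genes, and Ggps1 had the reverse pattern, against 4.17%. Taken by segment, both HF arrays were above both LF arrays for 17 of the 26 genes proximally, 20 in the middle and 14 distally, against 14.2%, 23.8% and 18.4% of all tested genes. They were below for 3, 2 and 3 genes, against 25.9%, 24.8% and 20.8%.

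**Figure D1:**
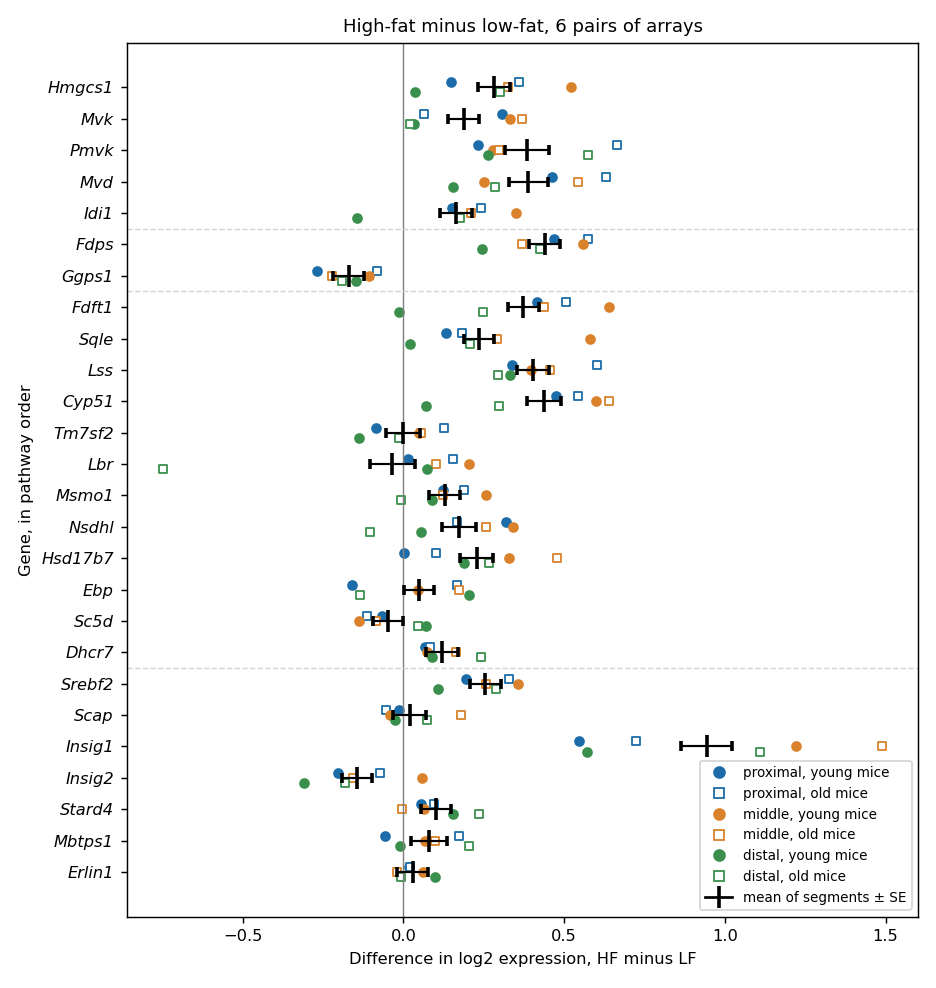
Difference in log2 expression between HF and LF for the 26 measured genes in pathway order, with 1 point for each pair of arrays (colour for the segment, filled circles for young and open squares for old mice) and a black bar for the mean of segments ± SE from limma. Broken lines part the mevalonate, prenyl, sterol and control genes. Insig1 lies between 0.55 and 1.49, most synthesis genes lie above 0, and the open square of Lbr at -0.75 is the distal pair of old mice.

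The mevalonate steps turn acetoacetyl-CoA into isopentenyl diphosphate. In the values that follow, log2 expression is given for young and then old mice. Hmgcs1, which makes HMG-CoA, was at 9.81 and 9.84 on LF and 9.96 and 10.20 on HF in the proximal segment, at 9.92 and 10.04 against 10.44 and 10.37 in the middle, and at 10.93 and 10.83 against 10.97 and 11.13 in the distal segment. Both HF arrays thus exceeded both LF arrays in each segment, most clearly in the middle. The mean difference was 0.28 ± 0.05 (SE), a rise with an adjusted p of 0.0279 (limma).

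Pmvk, which phosphorylates phosphomevalonate, measured 7.19 and 7.12 on LF and 7.43 and 7.78 on HF proximally, 7.42 and 7.32 against 7.70 and 7.62 in the middle, and 7.82 and 7.87 against 8.09 and 8.45 distally. The HF arrays were higher without overlap in all segments, with the widest gaps in old proximal and old distal samples. Mvd, the decarboxylase that completes the mevalonate steps, measured 6.81 and 6.64 against 7.28 and 7.27 proximally, 7.13 and 6.98 against 7.39 and 7.53 in the middle, and 7.96 and 7.79 against 8.11 and 8.08 distally. Its groups did not overlap either. The mean differences were 0.39 ± 0.07 for Pmvk and 0.39 ± 0.06 for Mvd, with adjusted p-values of 0.0274 and 0.0199 (limma).

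Mvk, the mevalonate kinase, and Idi1, the isomerase of isopentenyl diphosphate, did not pass the test. The mean difference of Mvk was 0.19 (adjusted p = 0.0832, limma), and its 6 pairs ran from 0.02 to 0.37. Idi1 differed by 0.16 (adjusted p = 0.121, limma), with a lowest pair of -0.15 in the distal segment of young mice. A second probe set of Idi1 gave 0.16 and was higher on HF in 6 of 6 pairs. All 5 measured genes of the mevalonate steps thus lay above 0 in the mean, and 3 of them rose.

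The prenyl steps split the pathway. Fdps makes farnesyl diphosphate, the last product that sterols share with the other branches, and measured 8.35 and 8.33 on LF against 8.81 and 8.91 on HF proximally, 8.50 and 8.55 against 9.05 and 8.92 in the middle, and 9.31 and 9.17 against 9.56 and 9.59 distally. HF arrays were higher without overlap throughout. The mean difference was 0.44 ± 0.05 (adjusted p = 0.0071, limma), the smallest adjusted p of the synthesis genes. Ggps1, on the branch that leads away from sterols, showed the opposite sign at -0.17 ± 0.05, without passing the test (adjusted p = 0.0948, limma), and its 6 pairs ran from -0.27 to -0.08.

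From farnesyl diphosphate to lanosterol the genes rose together. Fdft1, the squalene synthase, measured 8.44 and 8.50 on LF against 8.85 and 9.01 on HF proximally, 8.87 and 8.79 against 9.51 and 9.23 in the middle, and 10.35 and 10.17 against 10.34 and 10.41 distally. Proximal and middle arrays separated by diet, whereas the young distal pair was level. Its mean difference was 0.37 ± 0.05 (adjusted p = 0.0118, limma), and 0.34 on a second, dimmer probe set.

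Sqle, the squalene epoxidase, measured 7.66 and 7.72 on LF against 7.80 and 7.90 on HF proximally, 8.05 and 8.11 against 8.63 and 8.40 in the middle, and 9.66 and 9.57 against 9.69 and 9.78 distally. The diets did not overlap in any segment, but the young distal arrays differed by only 0.02. The mean difference was 0.24 ± 0.05 (adjusted p = 0.0399, limma), the smallest of the 10 rises.

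Lss, which closes the rings to lanosterol, measured 6.56 and 6.76 against 6.90 and 7.36 proximally, 7.05 and 6.96 against 7.45 and 7.41 in the middle, and 7.79 and 7.67 against 8.12 and 7.97 distally. Cyp51, the lanosterol demethylase, measured 7.62 and 7.69 against 8.10 and 8.23 proximally, 7.78 and 7.75 against 8.38 and 8.39 in the middle, and 9.08 and 8.94 against 9.15 and 9.24 distally. For both genes the HF arrays lay above the LF arrays in every segment, and for Cyp51 the distal gap was the narrowest. Lss rose by 0.40 ± 0.05 and Cyp51 by 0.44 ± 0.05, with adjusted p-values of 0.0109 and 0.00874 (limma).

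Past Cyp51 the mean diet differences were smaller than those of the called enzyme genes, as were those of Mvk, Idi1 and Ggps1 before Cyp51. A link with position in the pathway was not tested. Of the 8 later genes none was called in the means of segments, and their mean differences ran from -0.05 for Sc5d to 0.23 for Hsd17b7. Hsd17b7, the ketosteroid reductase of the C4 demethylation, measured 8.57 and 8.59 on LF against 8.58 and 8.69 on HF proximally, 8.43 and 8.48 against 8.76 and 8.95 in the middle, and 8.99 and 8.98 against 9.18 and 9.25 distally. Middle and distal arrays separated by diet and the proximal ones did not. Its mean difference just missed the threshold at 0.23 ± 0.05 (adjusted p = 0.0569, limma).

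Its partners in the C4 demethylation, the oxidase gene Msmo1 and the decarboxylase gene Nsdhl, differed by 0.13 and 0.17 with adjusted p-values of 0.178 and 0.123 (limma). Dhcr7, the reductase of the final step of one route, was higher on HF in 6 of 6 pairs, by 0.07 to 0.24, but its mean difference of 0.12 was not called (adjusted p = 0.217, limma). The isomerase gene Ebp (0.05) and the desaturase gene Sc5d (-0.05) had mixed signs. The sterol reductase Tm7sf2 measured 8.37 and 8.17 on LF against 8.29 and 8.30 on HF proximally, 8.34 and 8.33 against 8.39 and 8.39 in the middle, and 9.06 and 8.93 against 8.92 and 8.91 distally. Diets overlapped in the proximal segment, the HF arrays were slightly higher in the middle and slightly lower distally, and the mean difference was -0.00 ± 0.05 (adjusted p = 0.995, limma).

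Lbr codes for a protein that is both a sterol reductase of the same step as Tm7sf2 and a receptor for lamin B in the nuclear envelope. It was singled out after its values were seen. In the distal segment it measured 9.78 and 9.70 on LF and 9.85 and 8.95 on HF, so that the old HF array lay far below the other 3. The difference was -0.75 against old LF and -0.90 against young HF, and no other gene of the list differed by as much in the downward direction between 2 arrays of a pair. On the same array the summed level of the B cell markers was 7.55 on the log2 scale against 8.36 to 8.77 on the other distal arrays, that of the crypt markers 11.48 against 12.00 to 12.08 and that of the smooth muscle markers 10.56 against 11.40 to 12.33. Their part in the low value of Lbr was not tested. In the other 5 pairs Lbr was higher on HF by 0.02 to 0.20.

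**Figure D2:**
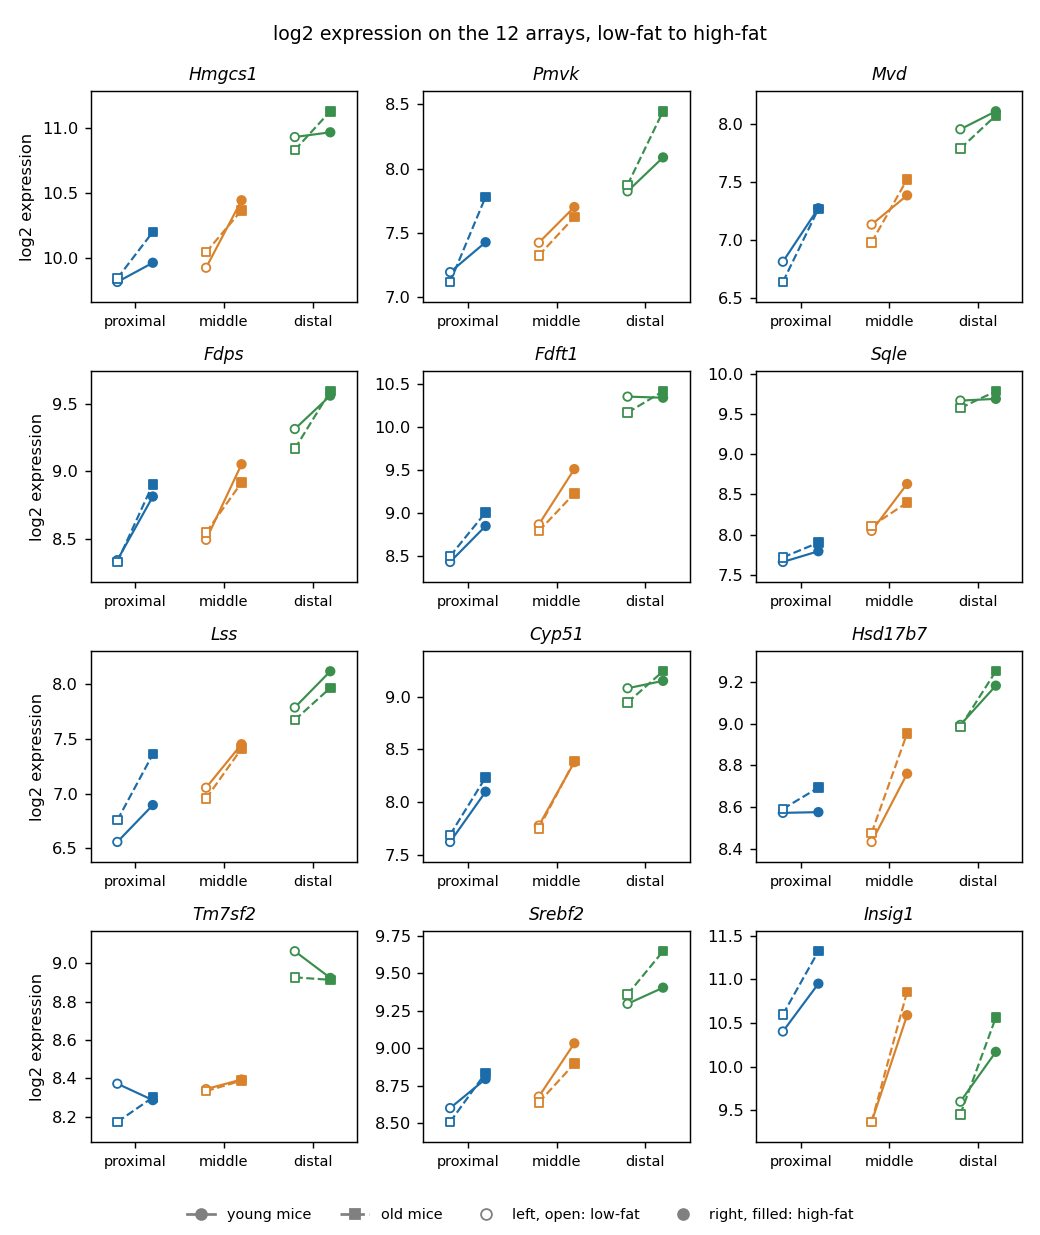
log2 expression on each of the 12 arrays for the 12 genes given in full, with LF (open, left) joined to HF (filled, right) within each segment, circles and solid lines for young and squares and broken lines for old mice, each panel on its own scale. The lines of Insig1 climb in all segments, by most in the middle, and those of Tm7sf2 are nearly flat next to its step from middle to distal.

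Among the control genes, Srebf2, which codes for SREBP2, measured 8.60 and 8.51 on LF against 8.79 and 8.84 on HF proximally, 8.68 and 8.64 against 9.03 and 8.90 in the middle, and 9.30 and 9.36 against 9.40 and 9.65 distally. The HF arrays lay above the LF arrays in each segment by a small margin. The mean difference was 0.26 ± 0.05, a rise of 1.19-fold (adjusted p = 0.0356, limma).

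Insig1 measured 10.40 and 10.60 on LF against 10.95 and 11.32 on HF proximally, 9.37 and 9.37 against 10.59 and 10.86 in the middle, and 9.60 and 9.45 against 10.17 and 10.56 distally. Every HF array exceeded both LF arrays of its segment, and the gap was widest in the middle. The mean difference was 0.94 ± 0.08 (adjusted p = 0.00238, limma). It was also the only gene of the list with over 2-fold between 2 arrays, in the middle segment of young (1.22) and old mice (1.49) and in the distal segment of old mice (1.11), where 1.55% of all tested genes passed 2-fold in at least 1 of the 6 diet pairs. The last of these uses the distal array that stood apart, and the young distal pair gave 0.57.

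Insig2, which holds Scap in the same way as Insig1 but is not raised by SREBP2, went the other way with a mean difference of -0.14 ± 0.05 (adjusted p = 0.136, limma). It was lower on HF in 5 of 6 pairs and the exception was the middle segment of young mice, at 0.06. Scap itself differed by 0.02 and the site-1 protease gene Mbtps1 by 0.08, with signs that varied between pairs. Stard4, a carrier of cholesterol between membranes, differed by 0.10 (adjusted p = 0.259, limma) and Erlin1, a membrane protein that binds Scap and Insig, by 0.03. Of the 7 measured control genes 2 thus rose on HF.

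Within single segments the middle segment carried the called genes. There 5 of the 26 genes rose (limma on the 12 arrays), namely Insig1 by 1.36 (2.56-fold), Cyp51 by 0.62, Fdft1 by 0.54, Fdps by 0.46 and Hsd17b7 by 0.40, where 1.3% of all tested genes rose and 1.23% fell. In the proximal segment 0 genes were called, where 0.235% of all tested genes rose and 0.0838% fell, the lowest adjusted p being 0.0609 for Cyp51. An unadjusted p under 0.05 was found there for 10 of the 26 genes and for 1291 of the 11933 tested genes (limma). In the distal segment 0 genes were called, where 0.352% of all tested genes rose and 0.168% fell, with Insig1 lowest at an adjusted p of 0.0578. Here 8 of the 26 genes and 2085 of the 11933 tested genes had an unadjusted p under 0.05 (limma). The 5 calls of the middle segment depend on its 4 arrays: without any of these none was called, and without any other array 3 were, Insig1 and Cyp51 among them each time.

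The size of the diet difference was compared between segments directly. Its median over the 26 genes was 0.16 proximally, 0.28 in the middle and 0.11 distally (0.07 in the young distal pair alone). For Cyp51 the distal difference was lower than the middle one by 0.44 (adjusted p = 0.239, limma), the lowest adjusted p among these contrasts. For Insig1 the middle exceeded the proximal difference by 0.72 (adjusted p = 0.514, limma) and the distal difference lay 0.52 below the middle one (adjusted p = 0.342, limma). Of the 26 genes 0 were called for middle against proximal, distal against middle or distal against proximal. The shares of all tested genes called were 0.0251%, 0.0754% and 0.0503%. In the same order 2, 6 and 4 of the 26 genes had an unadjusted p under 0.05 (limma). Among all 11933 tested genes 807, 1576 and 1135 did. A larger diet difference in the middle segment was therefore not shown by the test of the difference itself.

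No gene of the list passed the test for age. Of the 26 genes 0 were called between old and young mice in the means of segments (limma), where 2.85% of all tested genes were called. An unadjusted p under 0.05 was found for 0 of the 26 genes and for 2118 of the 11933 tested genes (limma). Within the proximal, middle and distal segment 0 of the 26 genes were called as well, where 0.109%, 0.0168% and 0.57% of all tested genes were. In the same order 1, 0 and 1 of the 26 genes had an unadjusted p under 0.05 (limma). Among all 11933 tested genes 1030, 1049 and 2257 did. The genes nearest to the threshold in the single segments were Lss in the proximal segment, higher in old mice by 0.33, and Lbr in the distal segment, lower by 0.49. For Lbr the distal difference was -0.90 on HF, which uses the array that stood apart, and -0.08 on LF, which does not. The median difference of the 26 genes in the means of segments was 0.02, against 0.01 for all tested genes.

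Insig1 was the gene with the highest mean difference for age, 0.18 (adjusted p = 0.301, limma), and was higher in old mice in 4 of 6 pairs. Dhcr7 was the only gene that was higher in old mice in 6 of 6 pairs, by 0.02 to 0.24, a pattern shown by 6.08% of all tested genes, and 0 genes were lower in 6 of 6 pairs, against 4.37%. No gene of the list reached 2-fold in any age pair, where 1.11% of all tested genes did so in at least 1 of 6 pairs. All 7 smooth muscle markers and all 4 fibroblast markers fell with age in the means of segments, as did 1 of 4 T cell and 1 of 4 myeloid markers, and 1 of 5 enteroendocrine markers rose. The part of these cells in the age values was not tested.

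**Figure D3:**
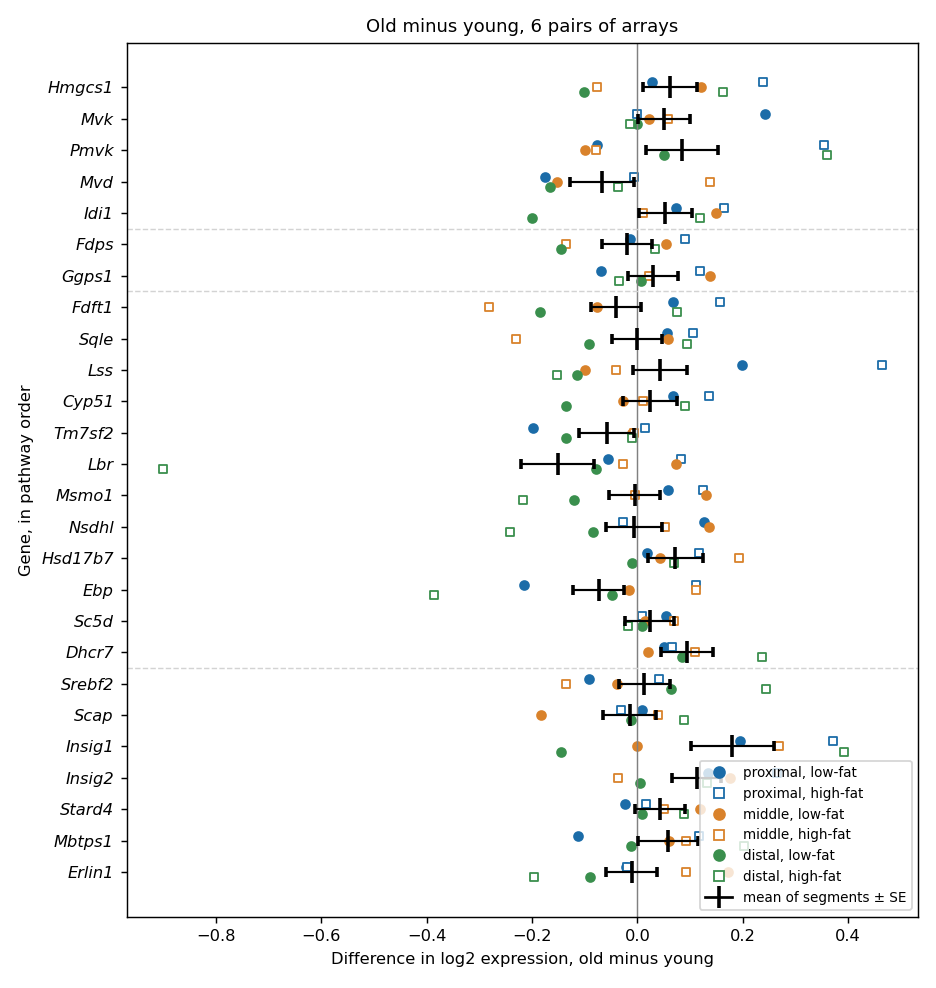
Difference in log2 expression between old and young mice for the 26 genes in pathway order, with 1 point for each pair of arrays (colour for the segment, filled circles for LF and open squares for HF) and a black bar for the mean of segments ± SE from limma. Points scatter on both sides of 0 for most genes, and the lowest is Lbr in the distal segment on HF at -0.90.

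Whether old mice responded to HF more than young mice could not be tested, since each combination of segment, age and diet has 1 array and the departure of the young from the old pair serves as the error. As values, HF minus LF with its sign was higher in old than in young mice in all 3 segments for 8 of the 26 genes. The 8 were Pmvk, Mvd, Cyp51, Tm7sf2, Hsd17b7, Dhcr7, Insig1 and Mbtps1, and 14.5% of all tested genes had this pattern. For Tm7sf2 the distal value was -0.14 in young and -0.01 in old mice. For Insig1 the excess in old mice was 0.18 proximally, 0.27 in the middle and 0.54 distally. For Pmvk it was 0.43, 0.02 and 0.31. All distal values of this kind, and so the counts over 3 segments, include the array that stood apart, and no distal value can be had without it. Nsdhl alone had the higher signed value in young mice in all 3 segments, against 10.4% of all tested genes. Its distal value was 0.05 in young and -0.10 in old mice.

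Most of these genes differed along the intestine. From the proximal to the distal segment 19 of the 26 genes rose and 4 fell (limma with the pool of mice as a block), where 27.3% of all tested genes rose and 27.5% fell. The median difference was 0.48 against 0.02 for all tested genes. Most of the increase lay between the middle and the distal segment, where 18 genes rose and 1 fell (14.6% and 20.0% of all tested genes), with a median of 0.45. Between the proximal and the middle segment 7 rose and 1 fell, where 14.0% of all tested genes rose and 25.0% were called in either direction, with a median of 0.09. All 4 distal arrays lay above all 4 proximal arrays for 19 genes and below for Sc5d and Erlin1 (22.9% and 23.9% of all tested genes). They lay above all middle arrays for 17 genes and below for the same pair (13.0% and 16.9%), whereas the middle arrays lay above the proximal ones only for Sqle, Lbr and Stard4 (15.7%). Without the distal array that stood apart 19 genes rose and 3 fell from proximal to distal, and 19 rose and 1 fell from middle to distal.

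The steps around squalene had the steepest gradients. Sqle stood at 7.77 ± 0.10 (SD, n = 4) proximally, 8.30 ± 0.27 in the middle and 9.68 ± 0.09 distally, a difference of 1.90 (3.74-fold) from end to end. It was the only gene of the list whose 4 proximal, 4 middle and 4 distal arrays followed each other without overlap, a pattern found in 4.54% of all tested genes. Fdft1 stood at 8.70 ± 0.28, 9.10 ± 0.33 and 10.32 ± 0.11, 1.62 higher distally (3.07-fold), and Cyp51 at 7.91 ± 0.30, 8.07 ± 0.36 and 9.10 ± 0.13, 1.19 higher distally (2.28-fold). The distal arrays of both genes lay above all others, while proximal and middle arrays overlapped. The adjusted p-values from end to end were 6.33e-08 for Sqle, 6.64e-07 for Fdft1 and 2e-06 for Cyp51 (limma).

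Hmgcs1, Lss and Mvd were also about 2-fold higher distally, by 1.02, 0.99 and 0.99. Fdps was higher by 0.81, Pmvk by 0.68, Idi1 by 0.47 and Mvk by 0.44, so all 5 measured genes of the mevalonate steps rose. In the later part of the pathway the distal excess was 0.83 for Lbr (1.06 without the array that stood apart), 0.67 for Tm7sf2, 0.61 for Nsdhl, 0.50 for Hsd17b7 and 0.35 for Msmo1, and these 5 rose as well. Tm7sf2, which did not pass the test for diet, thus had a distal level of 8.96 ± 0.07 against 8.28 ± 0.08 proximally. Dhcr7 was at 8.38 ± 0.06, 8.25 ± 0.08 and 8.46 ± 0.14 and rose only from middle to distal, by 0.21.

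A few genes ran against this gradient. Sc5d fell by 0.22 and Ggps1 fell by 0.15 from proximal to distal, while Ebp, at -0.21, missed the threshold (adjusted p = 0.0549, limma). The Ggps1 call was lost without the intensity filter (adjusted p = 0.0772, limma) and after quantile normalization (0.0944), and so was that of Sc5d after quantile normalization (0.442). The Ggps1 call was also lost without any 1 of 6 arrays, the distal ones of old HF, old LF and young LF, the middle one of young HF and the proximal ones of old HF and young LF (adjusted p = 0.0545 to 0.122, limma).

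Among the control genes Srebf2 followed the enzymes, with 8.68 ± 0.16 proximally, 8.81 ± 0.19 in the middle and 9.43 ± 0.15 distally, a rise of 0.74. Insig1 did the reverse and stood at 10.82 ± 0.41, 10.04 ± 0.79 and 9.94 ± 0.51, lower by 0.77 in the middle and by 0.87 in the distal than in the proximal segment (adjusted p = 0.00208 and 0.000279, limma). On LF the separation was complete, with proximal arrays at 10.40 and 10.60 and the other LF arrays at 9.37 to 9.60. On HF the proximal arrays, at 10.95 and 11.32, also lay above the other HF arrays, but the middle ones of 10.59 and 10.86 came near them. Insig2 was higher distally by 0.39, Scap by 0.24 and Stard4 by 0.44, while Erlin1 fell by 0.44 and Mbtps1 differed by 0.05.

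Other lists moved along the intestine as well. From proximal to distal all 7 crypt, 7 smooth muscle, 4 goblet, 4 Paneth and 3 B cell markers rose, with 1 of 4 fibroblast markers. All 5 enteroendocrine and all 4 T cell markers fell, with 5 of 8 enterocyte markers, of which 1 rose, and 2 of 4 myeloid markers rose and 2 fell. The median differences from proximal to middle and from middle to distal were 0.74 and 0.20 for the crypt, 0.68 and 0.98 for the smooth muscle, 0.06 and 0.46 for the goblet and 0.11 and 0.45 for the B cell markers, and the Paneth markers differed by a median of 2.07 from end to end. The 26 genes had 0.09 and 0.45. The summed log2 level of the smooth muscle markers ran from 9.35 to 10.37 proximally, 10.15 to 10.96 in the middle and 10.56 to 12.33 distally, that of the crypt markers from 10.73 to 10.92, 11.65 to 11.82 and 11.48 to 12.08, and that of the goblet markers from 14.02 to 14.09, 14.05 to 14.20 and 14.50 to 14.63. The part of these cell types in the gradients was not tested. With diet 1 of 7 crypt and 2 of 8 enterocyte markers rose, and 4 of 7 smooth muscle markers fell in the means of segments. Over all segments and ages the summed smooth muscle level was 9.35 to 12.33 on LF and 9.40 to 11.85 on HF. The median diet difference of these markers was -0.28 in the means of segments, where the 26 genes had 0.17. Distally, with the array that stood apart, it was -0.58 for smooth muscle, -0.43 for Paneth, -0.40 for fibroblast and -0.26 for B cell markers. Crypt markers had -0.16, T cell -0.18, myeloid -0.07, goblet 0.03, enteroendocrine 0.16 and enterocyte markers 0.17 there, and the 26 genes 0.11. The part of these cell types in the diet differences was not tested.

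**Figure D4:**
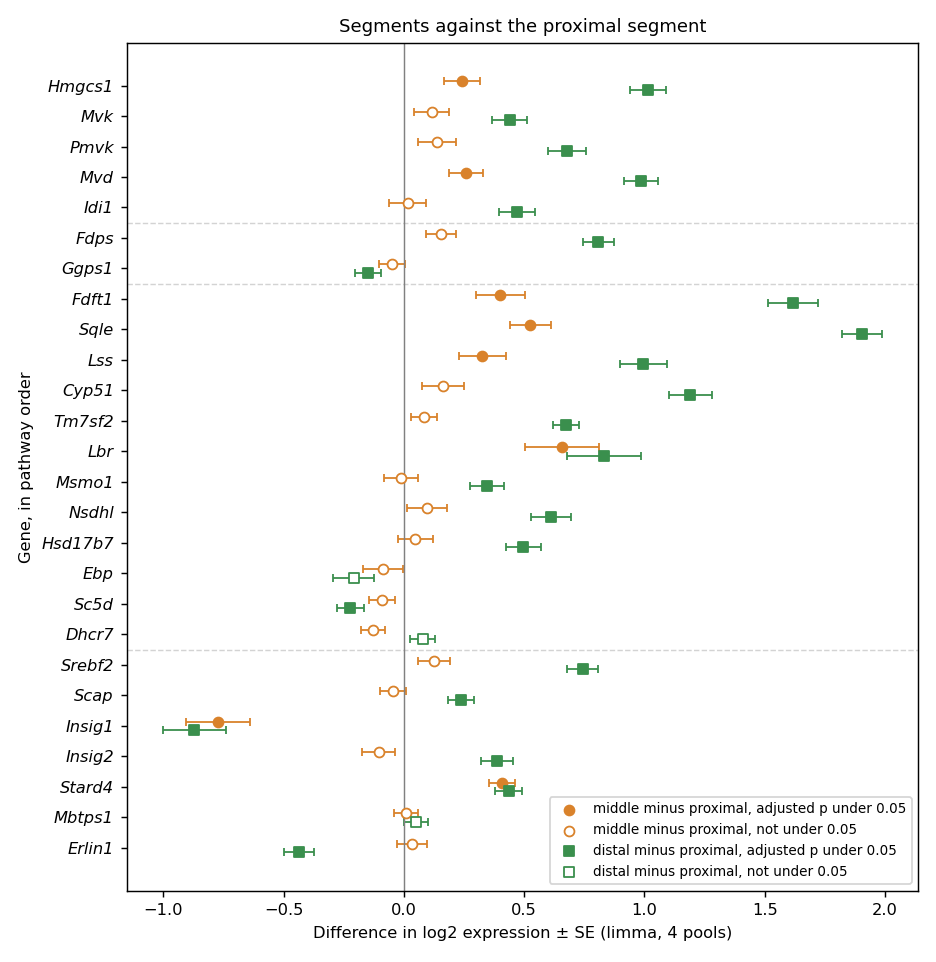
Difference in log2 expression ± SE from limma over the 4 pools, for the middle (circles) and the distal segment (squares) against the proximal one, with filled symbols for an adjusted p under 0.05. The distal squares of Sqle and Fdft1 lie farthest to the right at 1.90 and 1.62, and both symbols of Insig1 lie to the left at -0.77 and -0.87.

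The neighbouring genes of sterol traffic were examined by lists of their own, for which the diet difference is that of the means of segments unless a segment is named. Of 9 measured genes of uptake and transport 2 rose and 2 fell on HF. Tmem97, which codes for a sterol-regulated membrane protein that binds NPC1, measured 8.50 and 8.42 on LF against 8.92 and 8.87 on HF proximally, 8.69 and 8.66 against 8.98 and 9.25 in the middle, and 8.81 and 8.79 against 9.04 and 8.63 distally. It was higher in every pair but the old distal one, and rose by 0.30 (adjusted p = 0.0202, limma). Lipa, the lysosomal acid lipase that frees cholesterol from its esters, rose by 0.31.

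Npc1l1, the importer of dietary and biliary cholesterol in the brush border, measured 12.46 and 12.42 on LF against 12.12 and 12.02 on HF proximally, 12.70 and 12.67 against 12.05 and 11.98 in the middle, and 12.13 and 12.18 against 12.03 and 12.20 distally. Diets were well apart in the proximal and middle segments and overlapped distally. Npc1l1 fell by 0.36 in the mean and by 0.66 in the middle segment (adjusted p = 0.0128 and 0.00543, limma). Npc1, which releases cholesterol from lysosomes, fell by 0.28.

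Of 6 measured liver X receptor genes 3 fell and 1 rose. Abca1, the pump that loads cholesterol onto apolipoprotein, measured 7.90 and 8.10 on LF against 7.61 and 7.01 on HF proximally, 8.98 and 8.85 against 8.21 and 7.57 in the middle, and 8.51 and 8.69 against 8.45 and 8.56 distally. It was lower in every pair, with small distal gaps in which the diets overlapped. Abca1 fell by 0.60 in the mean and by 1.02 in the middle segment. Abcg5 and Abcg8, which together form the pump that returns sterols to the lumen, fell by 0.41 and 0.39 in the mean and by 0.67 and 0.57 in the middle, and were lower on HF in 6 of 6 pairs. The adjusted p-values in the mean were 0.025, 0.00814 and 0.0111 (limma). Nr1h3, which codes for one of the receptors, rose by 0.24 (adjusted p = 0.049, limma), and Abcg1 (-0.07) and Mylip (-0.33) were not called.

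Thus on the same HF arrays Insig1 and 9 further genes of the list were higher, while 3 efflux genes and the importer gene Npc1l1 were lower. These comparisons share their arrays and are given side by side as values.

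**Figure D5:**
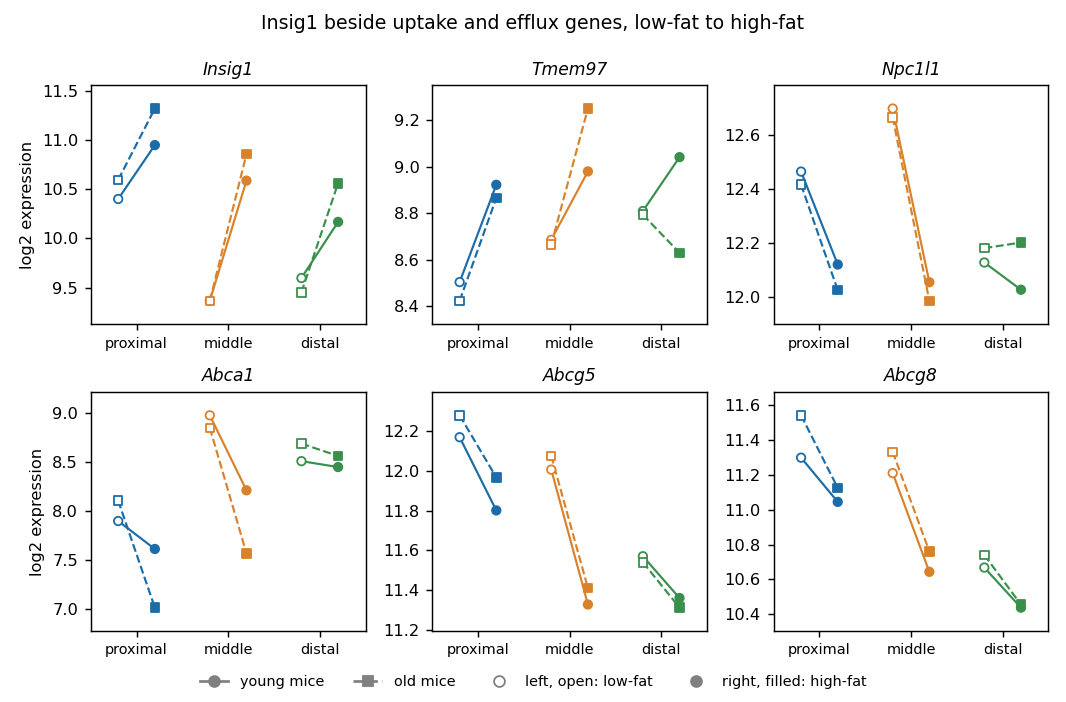
log2 expression on each of the 12 arrays for Insig1, Tmem97, Npc1l1, Abca1, Abcg5 and Abcg8, with LF (open, left) joined to HF (filled, right) within each segment, circles and solid lines for young and squares and broken lines for old mice, each panel on its own scale. Insig1 climbs in all segments, Abcg5 and Abcg8 descend in all, and Npc1l1 descends in the proximal and middle segments.

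The other branches of the isoprenoid pathway, which lead to dolichol, ubiquinone and prenylated proteins, showed no called gene: 0 of 9 measured genes were called for diet in the means of segments (limma), with 0 at an unadjusted p under 0.05, and the differences ran from -0.11 to 0.08. Of 9 measured genes of degradation and trafficking control 1 rose, Sec24d, a coat protein of vesicles that leave the endoplasmic reticulum, by 0.55 in the mean and 0.92 in the distal segment (adjusted p = 0.00965 and 0.0203, limma). Of the 2 measured genes of esterification and secretion, Mttp, which loads lipid onto apolipoprotein B, rose by 0.33 and Apob differed by 0.00. Acat1, the mitochondrial thiolase, differed by -0.01.

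Some fatty acid genes under the related factor SREBP1 rose as well. Of 10 measured genes 4 rose: Srebf1 by 0.37, the desaturase genes Scd1 by 1.18 and Scd2 by 0.43, and Me1, a source of NADPH, by 1.78, while Fasn (-0.06) and Acaca (-0.11), the core enzymes of fatty acid synthesis, were not called. Of 5 measured targets of PPAR alpha 3 rose, Cyp4a10 by 1.71, Acot1 by 1.59 and Cpt1a by 0.34. The differences of Me1, Cyp4a10, Acot1 and Scd1 were thus larger in size than that of Insig1.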

How the data were processed

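RNA of 12 pools, 1 for each segment, age and diet, was hybridised to Affymetrix Mouse Gene 1.0 ST arrays. The authors deposited log2 values made with RMA (background correction, quantile normalization, summary per probe set), with no version stated. The methods name probe sets built on Entrez genes, whereas the deposited ones are Affymetrix transcript clusters. Of 35556 probe sets 21789 name 1 gene, 1621 several and 12146 none in the platform annotation. The brightest of a gene's probe sets was used, and 15 pancreatic acinar genes were removed. Values ran from 1.8 to 14.49, with array medians of 5.57 to 5.7.

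limma 3.58.1 (R 4.3.3, statmod 1.5.0) was fitted to the log2 values of all 11933 genes with Benjamini-Hochberg adjustment. Diet and age were tested within segments (12 arrays, 3 residual degrees of freedom, prior of 4.315 degrees of freedom) and in means of segments (4 pools, 1 residual degree of freedom, prior of 5.586). Young and old pairs serve as repeats for diet, so that any age by diet interaction is part of the error. Segments were compared with the pool of mice as a block, since the labels and methods place all 3 segments in the same mice. The within-pool correlation was -0.0802 (duplicateCorrelation). The number of arrays limits the precision. The scripts were tested on simulated data. Genes given on all 12 arrays had an adjusted p under 0.05 or over 2-fold, at most 12 of them, by smallest adjusted p for diet or age and then segment. Full values for Tmem97, Npc1l1, Abca1 and Lbr were added after their values were seen. Members, lists and tests were chosen with earlier results of these data known. Alternatives were other filters, normalizations, variance models and probe set rules and left-out arrays or segments. Python 3.11.15 with pandas 2.3.3 did the rest. Promoter windows came from RefSeq. Some genes of the pathway are not reported here.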

Additional observations from a re-analysis of the deposited data

How the results depend on the processing

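The segment gradients moved least: over all alternatives 19 to 20 genes were called for distal minus middle and 22 to 24 for distal minus proximal. For middle minus proximal the count of 8 ran from 4 to 9 when arrays were left out, and was 4 or 5 without the proximal array of old LF, young HF or young LF or the middle array of old LF or young HF. Without the replicate block of the pool of mice the 3 segment counts were 8, 19 and 24, and the block changed no other call. For diet, a variance model with an intensity trend and robust estimates gave 5 genes instead of 0 in the proximal segment and 13 instead of 5 in the middle. It gave 2 instead of 0 in the distal segment and 17 instead of 10 in the means of segments (15 up, 2 down). Within segments this model also called more of all tested genes. It called 112 up and 121 down proximally, 389 and 465 in the middle and 240 and 195 distally. The main model called 28 and 10, 155 and 147, and 42 and 20. Without the intensity filter the middle segment had 2 and the means of segments 5 genes. Median centring and quantile normalization each gave 1 gene in the distal segment. The means of segments had 1 gene without the middle segment, 8 without the distal and 11 without the proximal one. With arrays left out the diet counts were 0 to 3 in the middle and 0 to 1 in the distal segment (1 without its young HF or young LF array), and the age count in the distal segment 0 to 1 (1 without its old LF or young LF array). At 1.5-fold 7 genes instead of 1 passed between 2 arrays. Of the 65 calls of single genes, 453 of 480 values under alternatives and 591 of 660 with an array left out stayed under the threshold, and 0 changed direction. With 1 array per group, the limit is the number of pools.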
